A study of Mus musculus with 25 samples.

Results

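Neurite growth genes and the stathmins are described here in single neurons of the mouse hypothalamus: Gap43, Basp1, Stmn1, Stmn2, Stmn3, Stmn4, Sox11, Gadd45a and Sprr1a. These 9 genes were taken by symbol out of the 30903 gene symbols measured, and all 9 were found. Messenger RNA was measured in 25 single cells picked by hand for green fluorescence (GFP) after papain digestion of the arcuate nucleus and median eminence, the floor of the hypothalamus. The donors were 2 male RIP-Cre mice on a (C57BL/6 x DBA)F2 background with an average age of 63 days, and their cells were pooled. Cre is driven there by a rat insulin promoter, and the adeno-associated virus (AAV-loxSTOPlox-GFP) makes GFP only after Cre has removed a stop cassette. The labels name the picked population RIP-Cre::AAV-loxSTOPlox-GFP+ and give no control, so the 25 cells form 1 group and 1 pooled sample. Every value below is therefore a description, with no p-value, and cells are not replicates of a condition.

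Growing and regrowing axons are the setting in which most of these genes became known. Gap43 and Basp1 encode acylated proteins on the inner face of the growth cone membrane, which bind calmodulin and are substrates of protein kinase C. Stathmins bind tubulin dimers and promote the shortening of microtubules until kinases phosphorylate them. Stmn1 is cytosolic, whereas Stmn2 (SCG10), Stmn3 (SCLIP) and Stmn4 (RB3) carry a palmitoylated end that anchors them to Golgi and vesicle membranes. Sox11 is a transcription factor of immature and regenerating neurons, Gadd45a is a stress-induced gene that rises after nerve injury, and Sprr1a encodes a cornified envelope protein of skin that injured sensory neurons induce.

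Levels are in RPKM, the reads of a gene divided by its length in kilobases and by the read total of the cell, and a gene is called detected from 10 RPKM upward. Depth, recovered from the steps between low values, ranged over 884860 to 2951627 reads per cell with a median of 1788849. The number of genes at 10 RPKM or more was 3843 to 6183 per cell (median 4896). The 8 neuron markers checked were each detected in most cells, among them Snap25 and Uchl1 in 25 of 25. Of the markers of other cell types, Gfap and Agt of astrocytes, C1qa, C1qb and C1qc of microglia, Mog, Mobp and Mag of oligodendrocytes, and Cldn5 of endothelium were listed at 0 in every cell, while Aldoc was detected in 20 cells and Mbp in 14.

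The sequences before 4 of the genes are shown because they span the range of detection: Basp1 in 24 cells, Stmn3 in 25, Sox11 in 11 and Sprr1a in none. Each is the 250 bases before the RefSeq transcription start (GRCm38.p6, minus strand), written 5′ to 3′. The windows are chr15:25413765-25414014 for Basp1, chr2:181314501-181314750 for Stmn3, chr12:27342719-27342968 for Sox11 and chr3:92485882-92486131 for Sprr1a. Capitals mark matches, on either strand, to TATAAA, to CCAAT, to GGGCGG (a GC box) and to TGANTCA (the AP-1 pattern, where N is any base).
Basp1: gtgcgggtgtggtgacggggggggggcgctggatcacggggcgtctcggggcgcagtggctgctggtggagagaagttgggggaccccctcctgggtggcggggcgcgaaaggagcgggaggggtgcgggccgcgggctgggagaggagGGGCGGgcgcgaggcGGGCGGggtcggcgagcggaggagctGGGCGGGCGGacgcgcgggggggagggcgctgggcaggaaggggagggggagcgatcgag
Stmn3: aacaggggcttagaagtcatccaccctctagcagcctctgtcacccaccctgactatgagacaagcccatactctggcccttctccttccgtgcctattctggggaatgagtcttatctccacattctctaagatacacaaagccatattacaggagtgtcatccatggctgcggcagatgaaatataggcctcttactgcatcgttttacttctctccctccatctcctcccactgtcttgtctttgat
Sox11: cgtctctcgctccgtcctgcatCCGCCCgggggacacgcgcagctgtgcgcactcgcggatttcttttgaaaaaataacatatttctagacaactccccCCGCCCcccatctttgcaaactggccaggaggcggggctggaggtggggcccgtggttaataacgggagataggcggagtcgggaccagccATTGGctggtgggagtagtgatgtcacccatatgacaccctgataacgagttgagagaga
Sprr1a: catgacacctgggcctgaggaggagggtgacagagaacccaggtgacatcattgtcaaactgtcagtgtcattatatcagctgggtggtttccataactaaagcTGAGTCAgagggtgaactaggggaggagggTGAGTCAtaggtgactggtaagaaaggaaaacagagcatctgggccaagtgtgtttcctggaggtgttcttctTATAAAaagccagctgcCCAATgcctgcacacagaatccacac
Basp1 had 30 CG pairs in its window, at least as many as 94.8% of 32851 such windows of 27025 genes, whose median was 6. The count was 17 for Sox11, 11 for Gadd45a, 3 for Stmn3 and 0 for Sprr1a, so the detected genes spanned most of the range. Basp1 carried 4 GC boxes, 2 of them overlapping, and Sox11 carried 2, a pattern that 32.7% of all windows hold at least once. Gadd45a, whose sequence is not printed, carried 1 GC box and 1 CCAAT box. Of the 5 genes with a window, Sprr1a was the one with an AP-1 pattern, found at positions -146 and -116 counted back from the start and present in 6.75% of all windows. It also had TATAAA at position -43 (12.4% of windows) and CCAAT at position -26 (33.8%), whereas Stmn3 held none of the 4 patterns. These are matches of letters and say nothing about which factors were bound in these cells.

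Of the 9 genes, 6 were detected in most cells, that is in at least 13 of 25, against 13.5% of all symbols. Gap43, Stmn1, Stmn2, Stmn3 and Stmn4 reached 10 RPKM in all 25 cells (100%, exact Clopper-Pearson 95% interval 86.3 to 100%), against 2.6% of all symbols, and 8 of the 9 reached it in at least 1 cell, against 42.7%. Each cell held 6 to 8 of the genes, with a median of 7: 11 cells held 6, 8 cells held 7 and 6 cells held 8. By median level the order was Gap43, Stmn1, Stmn3, Stmn4, Stmn2, Basp1, Sox11, Gadd45a and Sprr1a. The first 3 overlapped over most of their ranges, and the ranges of other neighbours overlapped as well. Cell by cell the order still held for some pairs: Stmn3 was above Stmn4 in 25 of 25 cells and Stmn1 above Stmn4 in 24, whereas Stmn4 was above Stmn2 in 19.

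**Figure D1:**
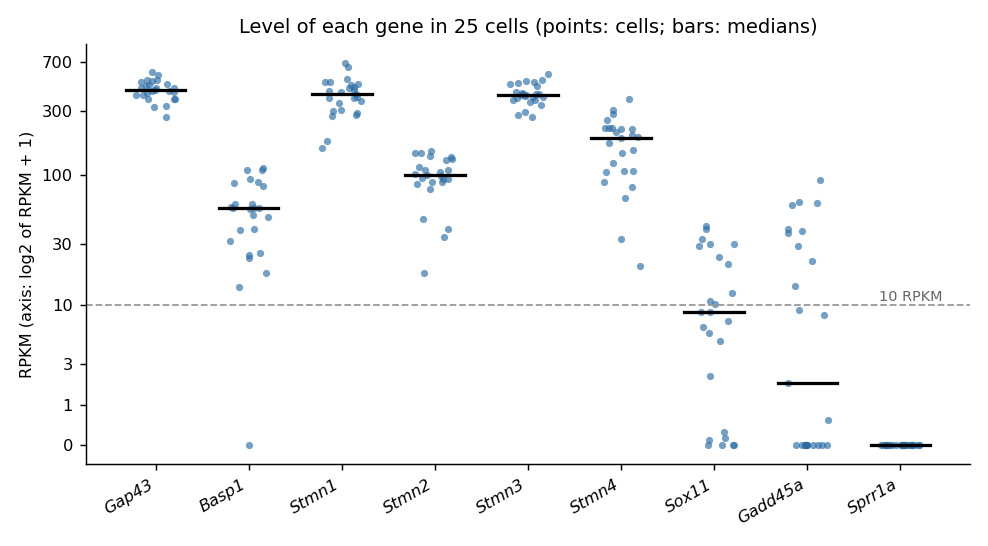
Level of each of the 9 genes in 25 cells; each point is 1 cell, black bars are medians, and the axis is log2(RPKM + 1) with tick labels in RPKM. Gap43, Stmn1 and Stmn3 sit together near 400 RPKM, Sox11 and Gadd45a run from 0 to 41.03 and 91.58 RPKM, and Sprr1a is at 0 in every cell.

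Gap43 (chromosome 16, 42248442 to 42340651, GRCm38, minus strand), the classic growth cone protein, was both high and even. Its lowest, median and highest levels were 273 (cell 11), 427 and 588 RPKM (cell 25), so the extremes differed 2.16-fold. It ranked 23rd of all symbols by mean level, at 433 ± 72.9 RPKM (SD over 25 cells). The coefficient of variation was 16.8%, the 11th lowest among the 804 genes detected in all cells, whose median was 33.2%. Variation was lower in high genes generally, with a median of 21.7% in the 30 genes above 400 RPKM and 24.4% in the 87 genes at 300 to 400 RPKM. A median of 1009 reads lay behind each value, which gives a counting interval of about 6.22% on either side.

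Basp1 (chromosome 15, 25363277 to 25413764, minus strand), the related membrane protein also called CAP-23, was lower and more variable. It was listed at 0 in cell 6, had a median of 55.98 RPKM and reached 112.5 RPKM in cell 24, with a coefficient of variation of 56.0%. The lowest level above 0 was 13.8 RPKM in cell 26, from 40 reads. Basp1 reached the level in 24 cells (96%, interval 79.6 to 99.9%), of which 17 lay at 13.8 to 60.22 RPKM and 7 at 82.6 to 112.5 RPKM. Gap43 exceeded Basp1 in every cell, by 3.98 to 28.6 times in the 24 cells with Basp1 (median 7.62 times), and Basp1 made up a median of 11.5% of their summed RPKM (range 0 to 20.1%).

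Stmn1 (chromosome 4, 134468320 to 134473843, plus strand), the cytosolic stathmin, spanned 159 RPKM in cell 12 to 681 RPKM in cell 43, with a median of 399. Stmn3 (chromosome 2, 181306459 to 181314500, minus strand) had nearly the same median, 397 RPKM, but a narrower range of 269 RPKM in cell 29 to 563 RPKM in cell 9. Their coefficients of variation were 30.6% for Stmn1 and 18.1% for Stmn3, and that of Stmn3 was the 23rd lowest of the 804 genes, at levels where variation was lower generally. Stmn1 was the higher in 13 cells and Stmn3 in 12, and no other stathmin led in any cell. The ratio of Stmn1 to Stmn3 ran over 0.337 in cell 12 to 1.54 in cell 2, around a median of 1.03.

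Stmn4 (chromosome 14, 66344296 to 66361680, plus strand) varied most of the stathmins, with 20.5 RPKM in cell 8, a median of 188 and 367 RPKM in cell 14. Cells 8 and 14 differed 17.9-fold, and their counting intervals did not overlap, being 15.1 to 27.3 RPKM for cell 8 and 343 to 393 RPKM for cell 14. Cells 8 and 15 (32.97 RPKM) stood below all others, the next being cell 12 at 66.69 RPKM. Stmn2 (chromosome 3, 8509360 to 8561606, plus strand), which marks growing axons, was at 17.8 RPKM in cell 7, had a median of 100.1 and reached 152 RPKM in cell 25. Cells 7, 43, 12 and 9 (17.8, 33.97, 38.9 and 46.74 RPKM) were apart from the other 21, which lay at 77.98 RPKM or more. None of these 4 was cell 8 or 15, so the lowest cells of the 2 genes differed, although cell 12 was low in both. Cell 12 also had the lowest Stmn1, but 472 RPKM of Stmn3.

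Within each cell the summed stathmin RPKM ran over 644 (cell 29) to 1476 (cell 43), with a median of 1060. Stmn1 made up a median of 37.9% of that sum (range 21.6 to 46.2%), Stmn3 36.8% (27.7 to 64.1%), Stmn4 16.7% (2.16 to 27.9%) and Stmn2 9.92% (2.04 to 14.7%). Stmn2 was the lowest stathmin in 19 cells and Stmn4 in 6, so the low end of the family differed between cells. This order rests on gene length for Stmn2: the deposited RPKM used 4932 bases, 2.38 times the 2073 bases of the single coding transcript of Stmn2 in GENCODE M21. If all reads counted for Stmn2 came from that transcript, its median level would be 238 RPKM. With Stmn4 also set to the length of its longest coding transcript, which multiplies it by 0.944, the median share of Stmn2 would be 21.0%. On these lengths Stmn4 would be the lowest in 18 cells and Stmn2 in 7. Both changes enter the share and these counts. How many of the reads lay outside the transcript is not known from these values, so 238 RPKM and 21.0% are upper limits. For Stmn1 and Stmn3 the length used equalled that of the longest coding transcript, and for Stmn4 it was 0.944 times as long.

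**Figure D2:**
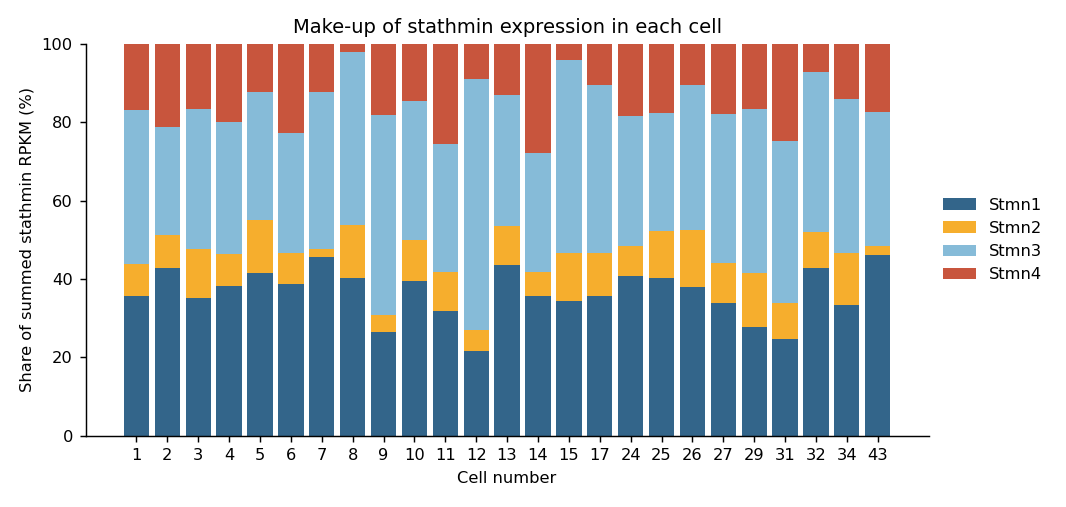
Share of the summed RPKM of Stmn1, Stmn2, Stmn3 and Stmn4 in each of the 25 cells, as percent of the sum. Stmn1 and Stmn3 fill most of every bar; the Stmn4 segment is nearly gone in cells 8 and 15 and the Stmn2 segment in cells 7 and 43.

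Sox11 (chromosome 12, 27334264 to 27342574, minus strand) was found in 11 cells (44%, interval 24.4 to 65.1%), and 20.1% of all symbols were likewise detected in 5 to 20 cells. Its lowest, median and highest levels were 0, 8.7 and 41.03 RPKM (cell 17), and the median over the 11 cells was 29 RPKM. The values were in part graded rather than all or none. While 4 cells were listed at 0, 10 lay above 0 and under 10 RPKM, and the next cells stood at 10.14, 10.74 and 12.53 RPKM. Of those 10 cells, 7 lay above 1 RPKM, and cells 6, 29 and 43 were close to 0, with 4, 3 and 1 reads. Sox11 is a long single-exon gene, counted here over 8452 bases, so its reads were many: 727 in cell 17, and still 161 in cell 7 at 8.71 RPKM. The RPKM level of 10 therefore asks for more reads of Sox11 than of the other genes, and at a level of 1 RPKM Sox11 was detected in 72% of cells.

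Gadd45a (chromosome 6, 67035096 to 67037457, minus strand) reached the level in 10 of 25 cells (40%, interval 21.1 to 61.3%). It was listed at 0 in 11 cells, had a median of 1.89 RPKM over all 25 and a median of 38.7 RPKM over the 10, with a maximum of 91.58 RPKM, again in cell 17. Only 4 cells lay between 0 and 10 RPKM, 3 of them above 1 RPKM against 7 for Sox11, so Gadd45a was closer to present or absent than Sox11. Its exons share 337 bases with the opposite-strand gene E230016M11Rik, and the libraries mark no strand. That gene was detected in 3 cells at up to 32.6 RPKM, and its r with Gadd45a over the 25 cells was -0.17. Sox11 and Gadd45a were both detected in 6 cells, at least 1 of them in 15, and neither in 10.

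Sprr1a (chromosome 3, 92483952 to 92485895, minus strand) was listed at 0 in all 25 cells, as were 47.1% of all symbols. The exact interval of 0 of 25 cells runs to 13.7%. The rule of 3 for a count of 0, an approximate upper bound of 3 divided by the number of cells, gives 12%. Both concern cells with Sprr1a at 10 RPKM. In these libraries 3 reads of this gene would amount to 1.26 to 4.21 RPKM depending on the depth of the cell. Of 6 other cornified envelope and keratinocyte genes, Sprr1b, Sprr2a1, Sprr3, Ivl and Krt5 were also listed at 0 throughout, and Lor was detected in 8 cells at up to 62.08 RPKM. These intervals and limits account for counting error alone, over the cells that were picked.

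The genes that work with these proteins were read from lists, from which the most and the least frequently detected are named. Each count of a list is to be read beside the 13.5% of all symbols detected in most cells. Of 11 growth cone membrane proteins, 8 were detected in most cells: the calmodulin gene Calm2 (median 521 RPKM), whose product Gap43 binds, the kinase C substrate Marcksl1 (239 RPKM) and the growth cone glycoprotein Gpm6a (212 RPKM) were in all 25. All 9 tubulin genes, the partners of stathmins, were detected in most cells, with Tubb4a (296 RPKM), Tubb2a (258 RPKM), Tubb3 (259 RPKM) and Tubb5 (241 RPKM) in every cell and the early-neuron tubulin Tubb2b (27.56 RPKM) in 14. Of 14 microtubule-associated proteins, 12 passed, among them Dpysl2 (CRMP2, 131 RPKM), Map1b (120 RPKM) and Mapt (tau, 108 RPKM), each in all cells. Dcx, the doublecortin of migrating neurons, reached at most 8.56 RPKM.

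Of 19 genes for kinases, their activators and scaffolds and a phosphatase that act on Gap43, on stathmins or in their pathways, 16 were detected in most cells. Camk2b (median 124 RPKM), the protein kinase A subunit Prkaca (123 RPKM), Cdk5 (106 RPKM) and the JNK kinase Map2k4 (90.5 RPKM) were each in all 25. The kinases Camk4 and Mapk8 (JNK1) were detected in 2 and 3 cells. Of 4 palmitoyl transferases, the class of enzyme that anchors Stmn2 to Stmn4 and Gap43 to membranes, Zdhhc7 was in 15 cells and Zdhhc17 in 13, and Zdhhc3 and Zdhhc15 in 5 and 3. Of 7 RNA-binding and silencing regulators, Elavl4 (HuD), which is known to stabilise Gap43 messenger RNA, was in 22 cells and Elavl3 in 19, while the neuronal gene repressor Rest was in 1.

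Genes of the axon injury response were unevenly detected. Of 16, 4 were detected in most cells, or 25% against 13.5% of all symbols: the protease Ecel1 in 24 (median 334 RPKM), Jun in 23 (184 RPKM), Klf6 in 19 (28.19 RPKM) and Stat3 in 13 (12.99 RPKM). Atf3 was detected in 6 cells at up to 198 RPKM, Gal in 5, and Il6 and Csrp3 were listed at 0 in all cells. Of 11 genes known to hold back axon growth, Rhoa was detected in 24 cells (71.69 RPKM), Klf9 in 18 and Rtn4 (Nogo) in 15, whereas the Nogo receptor Rtn4r was listed at 0 throughout.

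None of 10 markers of immature neurons, progenitors and dividing cells was detected in most cells, where 13.5% of all symbols were. Of the 10, 2 reached 10 RPKM in at least 1 cell, where 42.7% of all symbols did. They were Sox4 in 8 cells and Cd24a in 3 (at up to 297 RPKM in cell 12), and Nes, Neurod1 and Igfbpl1 were listed at 0. Tubb2b, named above as an early-neuron tubulin and detected in 14 cells, was not on this list, so the count depends on the list. Of 7 other Sox genes, the nearest relatives of Sox11 were Sox4 and Sox12, and Sox12 was in 4 cells, while Sox2 was in none. Gadd45a was the least frequent of its family: Gadd45g (median 208 RPKM) was in 24 cells and Gadd45b (14.75 RPKM) in 13. Of the 11 genes in the list of Gadd45 and p53 targets, which holds those 2, 5 passed in most cells, among them Ddit3 in 14 and Sesn1 in 15, while Cdkn1a (p21) was in 6.

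Gap43 and Stmn3 followed the depth of the cell. Over the 25 cells the Pearson r of log2(RPKM + 1) with log2 depth was -0.82 for Stmn3 and -0.67 for Gap43 (-0.79 to -0.60 for Gap43 when any 1 cell was left out), so the deeper cells had the lower levels. The r was -0.20 for Stmn1, -0.17 for Stmn4, -0.14 for Basp1, 0.02 for Stmn2, 0.17 for Sox11 and 0.04 for Gadd45a. The same relation was found in other genes at such levels: among genes detected in all cells, the median r was 0.01 at a mean of 10 to 100 RPKM (148 genes), -0.05 at 100 to 200 (308 genes), -0.22 at 200 to 300 (231 genes), -0.52 at 300 to 400 (87 genes) and -0.73 above 400 (30 genes). Stmn1, at a mean of 399 RPKM, had less of it than most genes of its level, whose upper quartile was -0.30, but its own r ran over -0.33 without cell 9 to -0.06 without cell 29. For Stmn4, Basp1, Stmn2, Sox11 and Gadd45a the r lay between -0.25 and 0.29 when any 1 cell was left out. The reads of Gap43 came to a median of 0.776 per base of the gene, those of Stmn1 to 0.726 and those of Stmn3 to 0.717, and the highest gene in any cell had 1.03 to 1.48 reads per base. The part of a limit on reads per base in these levels was not tested.

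**Figure D3:**
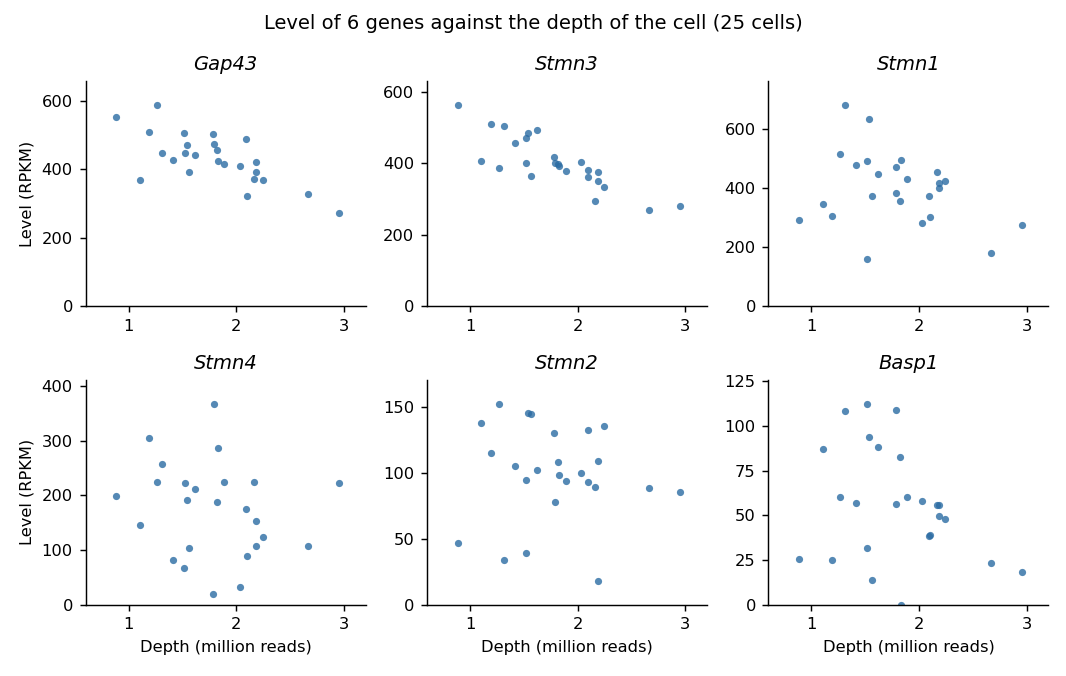
Level in RPKM against depth in units of 1000000 reads for 6 genes; each point is 1 of 25 cells and each panel has its own vertical axis from 0. The Gap43 and Stmn3 points slope downward (r = -0.67 and -0.82 on log2 scales), and the other panels show scatter.

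**Figure D4:**
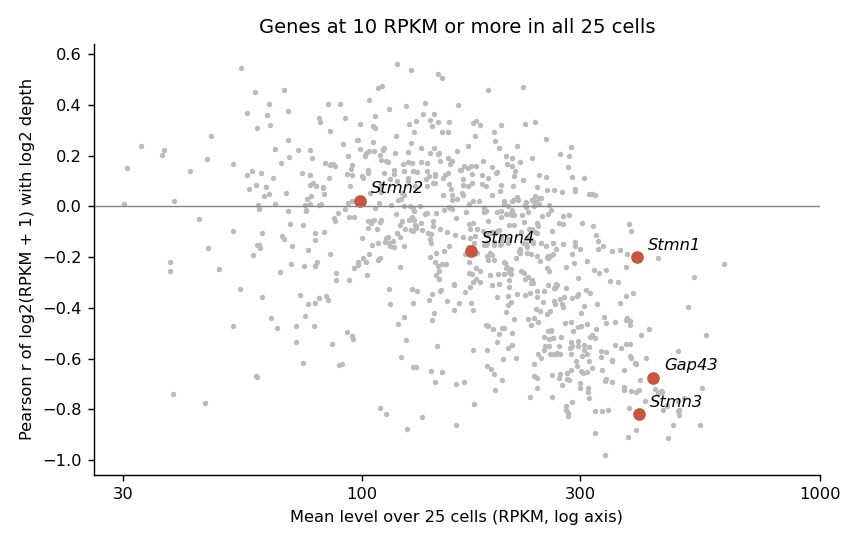
Pearson r of log2(RPKM + 1) with log2 depth over 25 cells, against mean level on a log axis, for the 804 genes at 10 RPKM or more in all 25 cells; red points are the 5 named genes. The cloud bends downward with level; Gap43 and Stmn3 lie in its lower right and Stmn1 in its upper part at a similar level.

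Pairs of the genes varied with little in common. Over the 15 pairs of the 6 genes detected in most cells, the mean r over 25 cells was 0.14, and 0.07 once a straight line on log2 depth was removed from each gene. The highest was Gap43 with Stmn3, at 0.73, which became 0.41 with depth removed. Stmn1 with Stmn4 gave 0.40, Stmn2 with Gadd45a 0.38 and Stmn4 with Sox11 -0.39. Basp1 with Stmn1 gave 0.24, or 0.65 without cell 6, in which Basp1 was at 0, so that 1 cell set this value. The cells share 1 pool and differ in depth, and these r are given as description with n = 25.

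**Figure D5:**
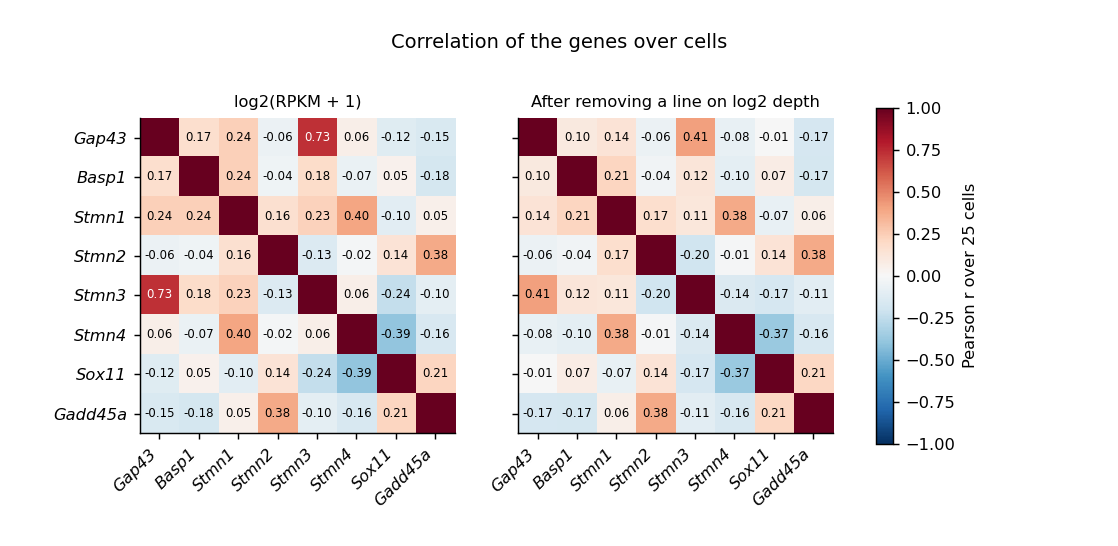
Pearson r over 25 cells between the 8 genes detected in at least 1 cell, on log2(RPKM + 1) at left and after removing a straight line on log2 depth at right; the colour scale runs over -1 to 1. The Gap43 and Stmn3 square pales to 0.41 at right, and the Stmn4 and Sox11 square stays near -0.37.

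The genes most like each member over the 25 cells, out of 8128 other genes detected in at least 5 cells, differed between members. For Gap43 they were Hspa8, Actg1 and Ckb (r = 0.79, 0.79 and 0.78), and for Stmn3 Cox4i1, Aldoa and Hspa8 (each 0.87). Those neighbours are high genes that followed depth themselves, with r between -0.91 (Aldoa) and -0.73 (Ckb). For Stmn1 they were Kantr, Sumo2 and Bex4 (0.71, 0.71 and 0.69), for Stmn4 Mrpl28, Arhgdig and Cul1 (0.76, 0.69 and 0.64, with Arhgdig at 0.42 without cell 8) and for Stmn2 Psd3, Etnk1 and Rrn3 (0.72, 0.70 and 0.68). For Basp1 they were Emc4, Lyrm4 and Dnajc5 (0.81, 0.80 and 0.77), but without cell 6 these became 0.17, 0.32 and 0.31. Sox11 was most like Ccnh, Necab1 and Rufy2 (0.80, 0.71 and 0.68), and Gadd45a like Sowahc, Pxdn and Eepd1 (0.67, 0.64 and 0.61). The best of 8128 genes is high by selection, and nothing about shared control is read from it.

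Some of the cell sets defined by other genes at 10 RPKM differed in these genes, given here as values without a test. In the 7 cells with Lhx1, a transcription factor gene, Sox11 was detected in 6 and had a median of 29 RPKM (range 8.7 to 39.01), whereas it was detected in 5 of the other 18 with a median of 5.36 RPKM (0 to 41.03). Stmn4 had a median of 104.6 RPKM in those 7 cells (20.5 to 222) and 205 RPKM in the other 18 (81.39 to 367), and the ranges overlapped for both genes. The 7 Lhx1 cells were somewhat deeper, with a median of 2029860 reads against 1704700 in the other 18; the part of depth was not tested, and the r of Sox11 with depth was 0.17.

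In the 7 cells with the T-box factor gene Tbx19, Basp1 had a median of 93.91 RPKM (49.84 to 112.5) and Stmn1 of 493 RPKM (418 to 681), against 43.56 (0 to 88.15) and 364 RPKM (159 to 494) in the other 18. All 7 Tbx19 cells had more Basp1 than the median of the others, although the ranges overlapped. Their depth was lower, with a median of 1519090 reads against 1858720 in the other 18. The part of depth was not tested. In the 5 cells with Sst, the somatostatin gene, Sox11 was detected in 1 and had a median of 0.25 RPKM (0 to 12.53), and in the other 20 cells it was detected in 10 with a median of 9.42 RPKM (0 to 41.03). Sst cells 1, 6 and 31, with Sox11 at 0, 0.25 and 0 RPKM, also belong to the low-Malat1 set described below. Sst cells 9 and 25, which do not, had 6.55 and 12.53 RPKM. All 7 Lhx1 cells, of which 6 had Sox11 detected, lay among the other 20 cells. In the 5 Sst cells Stmn4 ran over 199.6 to 305 RPKM, and in the other 20 over 20.5 to 367 RPKM. The Sst cells were also shallower, with a median of 1264670 reads against 1854730, and the part of depth was not tested. In the 10 cells with Glp1r, the GLP-1 receptor gene, Sox11 was detected in 2 and Gadd45a in 2, and in the other 15 cells they were detected in 9 and 8. Lhx1 cells 3, 5, 8, 12, 15 and 26, each with Sox11 detected, were all among those 15. The Glp1r and Lhx1 differences in Sox11 therefore rest in part on the same cells.

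The 6 cells under 20 RPKM of Malat1, a nuclear RNA, had Gap43 at a median of 433 RPKM and Stmn4 at 193 RPKM, against 427 and 188 RPKM in the other 19. Basp1 was at a median of 31.77 RPKM in the 6 cells (0 to 88.15) and 56.76 RPKM in the other 19 (13.8 to 112.5), and Sox11 was detected in 2 of the 6 and in 9 of the 19.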

How the data were processed

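Libraries of 25 single cells were prepared by the Smart-Seq2 method with Nextera XT, per the labels' protocols; the method has neither molecular identifiers nor strand information. The authors deposited a gene by cell table, and its values have the form of RPKM. Programs named in the submitters' processing notes are featureCounts 1.4.6, SAMtools 0.1.19, Picard 2.5.0, TopHat2 2.0.14 and bcl2fastq. Their roles, and the annotation, were not given in the sources used.

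The table held 33082 rows. The 26 rows with date numbers for names were left out, and of each of 755 repeated symbols only the row of highest sum was used. Levels were used as deposited, with log2(RPKM + 1) for correlations. The read totals and gene lengths behind the RPKM were recovered from the steps between values, in all 25 cells, with 2221 genes. Every member value above 0 then fell within 0.2 of a whole read. The member lengths were chosen for their fit to whole reads of these same values, so this is not an independent check. In a simulation of 22391 genes with 60% of lengths wrong, 25 of 25 depths were recovered within 0.000277% and 8 of 8 member lengths. That setting was easier than the data, where 9.1% of the lengths recovered for the 2221 genes equalled the starting RefSeq lengths. The simulated error is therefore not the accuracy of the depths recovered here. Positions and exons came from GENCODE M21 (GRCm38) and windows before gene starts from RefSeq, which had 5 of the 9 genes. Intervals of levels are exact Poisson 95% intervals of the reads. Tools were Python 3.11.15, numpy 2.4.6, pandas 2.3.3 and scipy 1.17.1.

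The members, the gene lists and the sets of cells were chosen with earlier results of these data known. Named were all members, from each list up to 4 of the most frequent and 2 of the least frequent genes, and the 3 genes most like each member; Atf3, Gal, Cdkn1a, Igfbpl1 and some absent markers were added after their values were seen. A few genes covered by this rule are not reported here. With 1 group and 1 pooled sample no test was made. Alternatives were other detection levels, rescaling to TPM, other pseudocounts, rank correlation, summed rows, coding lengths and leaving out cells.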

Additional observations from a re-analysis of the deposited data

How the results depend on the processing

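Counts were taken as unchanged within 1.5 times, shares of cells within their exact interval, and medians and the mean r within 1 SD over cells or pairs, which is wide. By these limits 35 of 36 recomputed values of the main summaries were unchanged. The exception was the median Stmn2 share of stathmin RPKM, 9.92% as deposited. It was 21.0% when the reads of each stathmin were assigned to the length of its longest coding transcript, which raised Stmn2 and slightly lowered Stmn4. This alternative was added after the data were seen, and the difference follows from the lengths. Between 6 and 8 of the 9 genes were in most cells over all detection levels from above 0 to 50 RPKM, with 8 above 0 and at 1 RPKM, and 7 after rescaling to TPM. The median per cell was 6 or 7. The mean r of the members, 0.142, ran over 0.0543 (all 8 detected genes) and 0.0670 (depth removed) to 0.238 (Spearman), so its size depends on these choices although it remained above 0. Of 126 values for single genes, 110 were within these limits and 16 moved, mainly median levels under TPM, which is another scale, and detection of Sox11, which was 84% of cells above 0 and 0% at 50 RPKM. The median of Gadd45a, 1.89 RPKM, was within the limit but went to 8.31 RPKM without the 6 cells low in Malat1. Leaving out the 1 cell under 1000000 reads or the 6 cells low in Malat1 changed no count of genes in most cells. No paired analysis was possible because there is 1 group of cells. The pool of 2 mice, the hand picking of cells and the absence of GFP-negative cells limit all values to these 25 cells.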
